A study of Mus musculus with 4 samples.

Results

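The genes of the MHC class I molecule were examined in malignant cells of subcutaneous MC38 tumors: 8 heavy chain genes (H2-K1, H2-D1, H2-Q4, H2-Q6, H2-Q7, H2-T22, H2-T23 and H2-M3), the light chain gene B2m and the transactivator gene Nlrc5. These 10 genes were taken by name from the 53379 gene identifiers of the count files, and all 10 were found and tested, among 13792 genes tested in all. The tumors grew in C57BL/6 mice from 50000 injected cells of MC38, a murine adenocarcinoma line of the colon that here also expressed GFP. All mice had received anti-PD-1, an antibody against an inhibitory receptor of T cells, at a dose described as sub-optimal, 100 µg on each of days 12, 15, 18 and 22. Cancer cells were sorted from tumors of 2 outcomes under this treatment, responder (2 libraries) and non-responder (2 libraries), for stranded bulk sequencing of poly(A) RNA. No library of untreated tumor cells was analysed here, so both groups carry the antibody treatment, and the labels give neither the age of the mice nor how response was scored. The labels do not tie the libraries of a group to separate mice, so the spread behind each p-value is between libraries and may be technical.

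A class I molecule consists of a membrane-bound heavy chain, a peptide in its groove and the light chain beta-2 microglobulin, and it shows fragments of the cell's own proteins to CD8 T cells. The classical heavy chains H2-K1 and H2-D1 present peptides to most CD8 T cells, while the non-classical Q, T and M chains vary less between strains and include ligands of other receptors. Interferon gamma raises class I transcription through IRF1 and through NLRC5, a transactivator that assembles on a promoter module of X and Y boxes, and NF-kB acts on an upstream enhancer of the classical genes. Tumor cells that lose class I expression can escape CD8 T cells.

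The promoters are shown to mark where the letters of the elements just named occur in them. Whether these elements had a part in the levels of the genes was not tested. The 5 windows below, from RefSeq on GRCm38.p6, run from 250 bases before to 50 bases after the RefSeq start, 5′ to 3′ on the strand of the gene. That start can differ from the start of the gene as counted. Capitals mark every match, on both strands, to the IRF element AANNGAAA, the NF-kB element (GGG, any 3 bases, T, any base, CC), the CRE half-site TGACG of the X2 box and the Y box ATTGG. H2-K1 and H2-D1 are the classical genes, H2-Q7 was the heavy chain gene with the largest positive log2 fold change, H2-T23 had the widest difference between non-responder libraries among heavy chains, and B2m had the narrowest of the 10 genes.
H2-K1: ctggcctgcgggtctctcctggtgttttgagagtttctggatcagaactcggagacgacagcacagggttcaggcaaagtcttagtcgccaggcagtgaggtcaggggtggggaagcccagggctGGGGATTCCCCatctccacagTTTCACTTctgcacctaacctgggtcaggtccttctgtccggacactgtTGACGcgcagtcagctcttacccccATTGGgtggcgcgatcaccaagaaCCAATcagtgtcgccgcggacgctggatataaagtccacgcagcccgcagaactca
H2-D1: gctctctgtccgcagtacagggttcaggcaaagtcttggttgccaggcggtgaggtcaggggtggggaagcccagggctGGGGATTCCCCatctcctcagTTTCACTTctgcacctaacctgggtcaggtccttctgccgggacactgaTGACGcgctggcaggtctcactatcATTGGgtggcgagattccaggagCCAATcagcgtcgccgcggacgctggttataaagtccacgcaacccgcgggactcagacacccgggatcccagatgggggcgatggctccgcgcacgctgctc
H2-Q7: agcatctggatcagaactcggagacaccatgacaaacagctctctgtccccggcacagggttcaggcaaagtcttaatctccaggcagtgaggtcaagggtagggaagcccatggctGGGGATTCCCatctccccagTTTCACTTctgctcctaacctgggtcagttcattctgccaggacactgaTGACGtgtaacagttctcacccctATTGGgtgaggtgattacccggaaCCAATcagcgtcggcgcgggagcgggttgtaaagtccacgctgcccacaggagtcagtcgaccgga
H2-T23: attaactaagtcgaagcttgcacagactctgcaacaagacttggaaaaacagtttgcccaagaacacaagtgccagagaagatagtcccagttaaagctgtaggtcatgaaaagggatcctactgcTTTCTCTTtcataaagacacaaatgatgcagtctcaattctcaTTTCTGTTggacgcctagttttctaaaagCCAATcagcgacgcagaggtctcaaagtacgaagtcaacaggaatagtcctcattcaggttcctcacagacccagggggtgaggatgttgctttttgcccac
B2m: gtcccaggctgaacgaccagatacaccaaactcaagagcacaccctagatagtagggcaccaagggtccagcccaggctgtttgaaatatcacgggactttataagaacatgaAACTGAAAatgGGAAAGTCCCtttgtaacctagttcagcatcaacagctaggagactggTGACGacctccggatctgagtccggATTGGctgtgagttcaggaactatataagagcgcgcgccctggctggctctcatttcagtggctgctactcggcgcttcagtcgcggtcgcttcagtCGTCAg

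The window of H2-K1 is chr17:34000284-34000583 on the minus strand, that of H2-D1 is chr17:35262844-35263143 on the plus strand and that of H2-Q7 is chr17:35438905-35439204 on the plus strand. The window of H2-T23 is chr17:36032652-36032951 on the minus strand and that of B2m is chr2:122147437-122147736 on the plus strand. The RefSeq starts of H2-D1 and H2-T23 lie inside the intervals of these genes as counted, and the H2-D1 window lies wholly inside. Windows were found for 9 of the 10 genes. The IRF letters were in 9 of the 9, against 24.2% of all 27018 windows of this length, and the Y box letters were in 9 of the 9, against 37.9%. The NF-kB letters were in 6 of the 9, with a share of 17.2% among all windows, and the TGACG half-site was in 7 of the 9, with a share of 21.02%. In H2-K1, H2-D1, H2-Q4 and H2-Q6 the NF-kB letters matched on both strands at overlapping positions. The letters of all 4 elements occurred together in 5 of the 9 windows and in 0.263% of all windows. Matches were counted without regard to order or spacing. In H2-Q4 a TGACG match at position -73 from the start lay between Y box matches at -79 and -55, and another lay at 32. In H2-T22 the TGACG match at -22 came after all of its Y box matches. Such matches need not be X2 boxes. The H2-T23 window held the IRF and Y box letters and no match to the NF-kB element or to TGACG, which says only that these letters are not in this window. The heavy chain genes are related by descent, so their windows are not independent of each other.

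Total counts per library were 18447041 to 21754063. The malignant label was checked against markers fixed for the cells a tumor can hold. Epithelial markers were nearly absent in all libraries, with 7 genes summing to 2.48 and 1.94 CPM (TMM-scaled counts relative to library size) in responder libraries and 0.725 and 3.23 CPM in non-responder libraries, and Epcam at no more than 0.157 CPM, although MC38 is labelled an adenocarcinoma. T and NK cell markers (8 genes) summed to 0.298 and 0.944 CPM in the responder libraries and to 0.29 and 2.56 CPM in the non-responder libraries. Pan-leukocyte markers (9 genes) summed to 13.3 and 44.4 CPM in responder replicates 1 and 2, and to 42.7 and 109.7 CPM in non-responder replicates 1 and 2. Of these, Tyrobp was at 0 in responder replicate 1 and the others had reads in every library. Macrophage markers (8 genes) summed to 12.9 and 76.0 CPM in responder and 79.0 and 215 CPM in non-responder libraries. Markers of dendritic and other antigen-presenting cells (8 genes) summed to 4.76 and 114 CPM in responder and 18.8 and 360.0 CPM in non-responder libraries, and endothelial markers (5 genes) to 12.4 and 15.3 CPM in responder and 24.3 and 27.9 CPM in non-responder libraries. Fibroblast markers (9 genes) summed to 8500.1 and 7414 CPM in responder and 9931 and 16245 CPM in non-responder libraries. Most of this sum was Col3a1, with 6906 and 5800 CPM in responder and 7607 and 13410 CPM in non-responder libraries. Pdgfra, Pdgfrb and Postn were higher in non-responder replicate 1 than in replicate 2, and the other fibroblast markers were lower.

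Class I transcripts were abundant in all 4 libraries, and the light chain was by far the highest. Per kilobase of annotated exon, B2m averaged 6139 CPM over the 4 libraries, rank 3 of the 53379 genes. H2-K1 averaged 586 CPM per kilobase (rank 26) and H2-D1 averaged 438 CPM per kilobase (rank 37). The order then ran through H2-Q6 (112 CPM per kilobase), H2-Q4 (92.6), H2-Q7 (53.7), H2-T22 (33.3), H2-M3 (24.3), Nlrc5 (15.9) and H2-T23 (8.17). Each neighbour in this order lay above the next in 4 of 4 libraries, except that H2-Q6 lay above H2-Q4 in 3 of 4 libraries. H2-K1 exceeded H2-D1 by 1.33-fold to 1.39-fold in the 4 libraries, the steadiest step in the order.

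The members did not differ between responder and non-responder tumor cells beyond the spread between libraries. By edgeR's quasi-likelihood test, 0 of the 10 passed at 0.05 after Benjamini-Hochberg adjustment across all tested genes, where 0% of all tested genes passed, and their adjusted p-values ran from 0.869 to 0.998. At an unadjusted p under 0.05 the count was also 0 of 10, against 6.21% of all tested genes, DESeq2 called 0 of 10, against 0.45% of all tested genes, and limma-voom called 0 of 10 and 0 of all 13792. The log2 fold change was above 0 for 7 of the 10 and below 0 for 3, with a median of 0.13, beside a median of -0.01 over all tested genes. The 95% intervals reached log2 values of 0.55 to 2.74 on the higher side and -0.38 to -1.92 on the lower side, so both a rise and a fall of such sizes in responder cells are within the error.

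Non-responder replicate 1 had the lowest level of all 10 genes, while the other non-responder library was the highest for 7 of them. Across all tested genes, non-responder replicate 1 was the lowest library for 33.4%. Both responder libraries lay between the non-responder libraries for 7 of the 10 genes, a position that 21.8% of all tested genes had. In bulk RNA, fewer cells expressing a gene and less RNA per cell cannot be told apart.

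**Figure D1:**
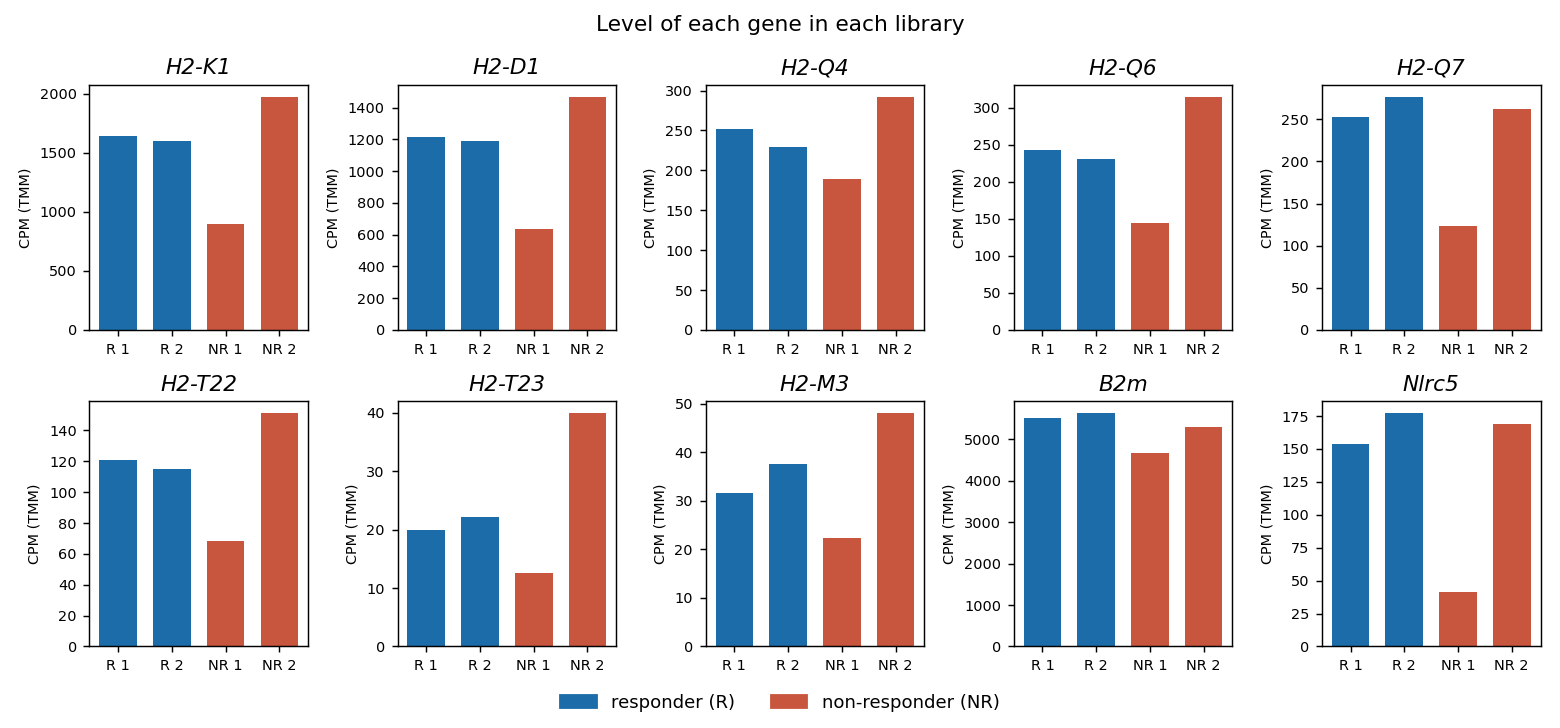
Level of each of the 10 genes in each library, in CPM after TMM scaling on a linear axis from 0, 1 bar per library, responder (R) left of non-responder (NR). Non-responder replicate 1 is the lowest bar in all 10 panels, and the responder bars lie between the non-responder bars in 7 of them.

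Among the classical heavy chains, H2-K1 (ENSMUSG00000061232, mm10 chromosome 17 from 33996017 to 34000333, minus strand) had 1639.7 and 1599 CPM in responder replicates 1 and 2, and 895 and 1974 CPM in non-responder replicates 1 and 2. The responder libraries were nearly equal and lay between the non-responder libraries, so the groups overlapped. The log2 fold change was 0.17 (SE 0.36, 95% interval -0.69 to 1.03, edgeR adjusted p = 0.95). H2-D1 (ENSMUSG00000073411, chromosome 17 from 35262730 to 35267499, plus strand) had 1219 and 1193 CPM in responder libraries, against 636 and 1470 CPM in non-responder libraries. It repeated the order of H2-K1, with a log2 fold change of 0.19 (SE 0.38, 95% interval -0.72 to 1.11, edgeR adjusted p = 0.95). Counts were taken over annotated exons, and each value of these genes rests on at least 13161 reads.

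The Q region lies next to H2-D1 on chromosome 17. H2-Q7 (chromosome 17 from 35439155 to 35443773), which encodes a Qa-2 chain that can be anchored in the membrane by a lipid, had 253 and 277 CPM in responder libraries, against 123 and 262 CPM in non-responder libraries. It was the heavy chain whose highest value was in a responder library, replicate 2, and the groups overlapped (log2 fold change 0.46, SE 0.35, edgeR adjusted p = 0.869). H2-Q6 (chromosome 17 from 35424850 to 35430055), a near relative of H2-Q7, had 243 and 230.4 CPM in responder and 144 and 315 CPM in non-responder libraries (log2 fold change 0.04, SE 0.36). H2-Q4 (chromosome 17 from 35379617 to 35385290), which encodes the chain Qb-1, had 251 and 229 CPM in responder and 189 and 292 CPM in non-responder libraries. Its log2 fold change was -0.004 (SE 0.24), and its non-responder libraries differed by 1.55-fold, the narrowest gap of a heavy chain.

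In the T and M regions, H2-T22 (chromosome 17 from 36037128 to 36042747), whose product is bound by some gamma delta T cells, had 121 and 115 CPM in responder and 68.6 and 151 CPM in non-responder libraries. H2-T23 (chromosome 17 from 36029773 to 36032855) encodes Qa-1, which shows leader peptides of other class I chains to the inhibitory receptor NKG2A on NK and CD8 T cells. It had 19.9 and 22.1 CPM in responder and 12.5 and 39.9 CPM in non-responder libraries, from 259 to 889 reads. Its log2 fold change of -0.32 (SE 0.59, edgeR adjusted p = 0.947) was the lowest of the 10 genes, and the value in non-responder replicate 2 lay well above the other libraries. H2-M3 (chromosome 17 from 37270220 to 37274484), which presents peptides that begin with formylmethionine, had 31.7 and 37.6 CPM in responder and 22.4 and 48.1 CPM in non-responder libraries. The log2 fold changes of H2-T22 and H2-M3 were 0.10 (SE 0.37) and -0.03 (SE 0.36), and for all of these T and M genes the responder libraries lay inside the non-responder range.

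B2m (ENSMUSG00000060802, chromosome 2 from 122147686 to 122153083, plus strand) varied least. It had 5520.1 and 5629.7 CPM in responder libraries, against 4673 and 5297 CPM in non-responder libraries. B2m was the 1 gene of the 10 whose groups did not overlap, where 36.5% of all tested genes did not overlap and 18.8% were higher in both responder libraries. With scaling by library size only, its groups overlapped as well, at 5443 and 5830.0 CPM in responder and 4447 and 5451 CPM in non-responder libraries. The difference was small (log2 fold change 0.16, SE 0.25, 95% interval -0.41 to 0.74, edgeR adjusted p = 0.938). The transactivator gene Nlrc5 (ENSMUSG00000074151, chromosome 8 from 94434356 to 94527272, plus strand) varied most. It had 154 and 177 CPM in responder libraries, against 41.2 and 169 CPM in non-responder libraries. Its log2 fold change of 0.66 was the highest of the 10 but had an SE of 0.73 and a 95% interval of -1.43 to 2.74 (edgeR adjusted p = 0.918), since the low library was in the same group as a library at the level of the responders.

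The fold changes depended on which non-responder library was kept, least so for B2m. Without non-responder replicate 1 the log2 fold change was below 0 for 8 of the 10 genes, at a median of -0.28, and 0 of 10 passed, where 0.284% of all tested genes passed. H2-K1 and H2-D1 were then both at -0.28, Nlrc5 was at -0.02, and H2-T23 was at -0.92 (SE 0.19, edgeR adjusted p = 0.0926). Without non-responder replicate 2 the log2 fold change was above 0 for 10 of 10, at a median of 0.76, and 4 of 10 passed, where 3.62% of all tested genes passed. Those 4 were H2-D1 (0.92, edgeR adjusted p = 0.0438), H2-Q7 (1.10, adjusted p = 0.00796), H2-T22 (0.78, adjusted p = 0.0384) and Nlrc5 (2.004, adjusted p = 3.04e-05). Each of these fits leaves 1 library in the non-responder group, which is then assumed to vary like the responders. B2m was at 0.08 without replicate 1 and at 0.25 without replicate 2, and did not pass in either fit. Leaving out responder replicate 1 or 2 gave 0 of 10, where 0.459% and 1.2% of all tested genes passed.

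**Figure D2:**
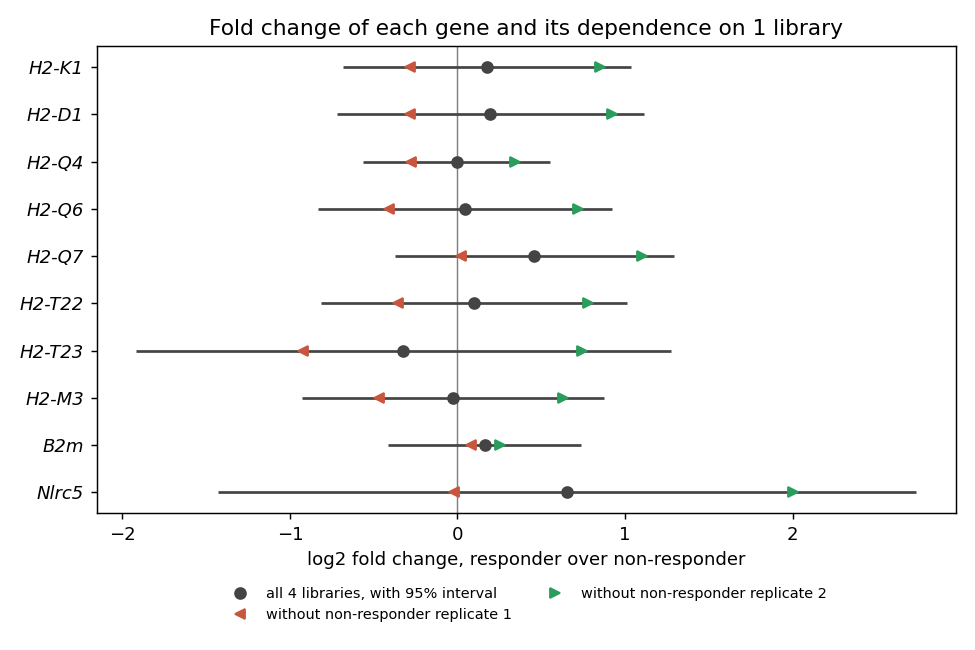
Log2 fold change of each gene, responder over non-responder. Circles with lines are the fit to all 4 libraries with its 95% interval, and triangles are the fits without non-responder replicate 1 (left-pointing) or 2 (right-pointing). All 10 intervals include 0, and for every gene the left-pointing triangle is at a lower value than the right-pointing one.

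For these 10 genes the difference between libraries was wide in the non-responder pair and narrow in the responder pair. Each group gives only 1 such pair, and the 10 genes are not independent observations of it. Non-responder replicate 1 was lower than replicate 2 by over 1.5-fold for 9 of the 10 genes, where 16.7% of all tested genes were, and by over 2-fold for 8, where 7.95% were. The median log2 ratio of the 10 genes was -1.14, beside -0.03 over all tested genes. Between the responder replicates 0 of 10 differed by over 1.5-fold, where 13.6% of all tested genes did, and the widest log2 ratio was 0.25 in size. The non-responder gap differed among the genes: Nlrc5 in replicate 1 was at 24.4% of its level in replicate 2, H2-T23 at 31.4%, and H2-D1 at 43.3%. H2-K1, H2-Q6, H2-T22, H2-M3 and H2-Q7 were between 45.3% and 47.0% of their levels in replicate 2, while H2-Q4 was at 64.6% and B2m at 88.2%. Whether the spread itself differed between responders and non-responders was not tested.

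**Figure D3:**
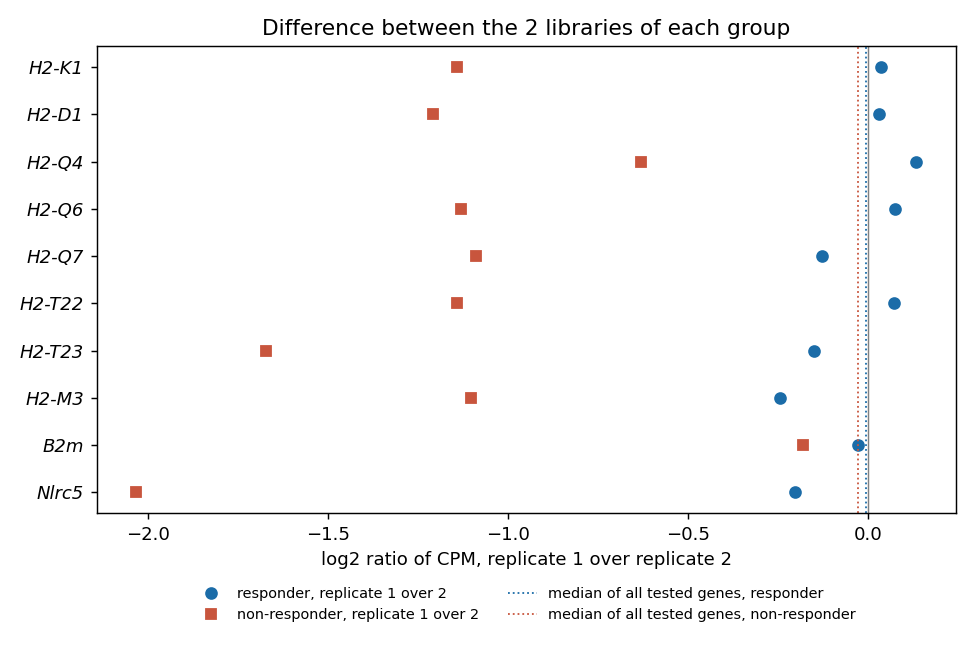
Log2 ratio of CPM, replicate 1 over replicate 2, for each gene in responder libraries (circles) and non-responder libraries (squares), with the medians of all tested genes as dotted lines. The responder circles lie within 0.25 of 0, and 9 of the 10 non-responder squares stand for a gap of over 1.5-fold, with B2m the exception.

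Summed over the 8 heavy chains, responder libraries had 3778 and 3703 CPM and non-responder libraries had 2091 and 4553 CPM. The group means were 3740.3 ± 53.0 CPM in responder and 3322 ± 1741 CPM in non-responder libraries (SD, n = 2 each, exact two-sided permutation p = 1, where the smallest p this design allows is 0.333). In the assembled molecule each heavy chain pairs with 1 light chain. Per kilobase of exon, B2m transcripts exceeded the summed heavy chain transcripts by 4.46-fold and 4.65-fold in responder libraries, and by 6.79-fold and 3.53-fold in non-responder libraries. Light chain transcripts exceeded heavy chain transcripts in every library, by the most where heavy chains were lowest. The log2 ratio of heavy chain counts to B2m counts, which does not depend on scaling between libraries, was -0.55 and -0.60 in responder libraries, against -1.16 and -0.22 in non-responder libraries (difference of means 0.11, exact two-sided permutation p = 1).

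The make-up of the heavy chain reads was steadier than their amount. H2-K1 gave 43.4% (95% Wilson interval 43.1 to 43.8) and 43.2% (42.8 to 43.6) of the heavy chain counts in responder libraries, against 42.8% (42.3 to 43.3) and 43.4% (43.1 to 43.7) in non-responder libraries. These intervals cover counting error only. H2-Q4 gave 6.65% and 6.18% in responder libraries, against 9.04% and 6.42% in non-responder libraries, so its share was highest in the library with the fewest heavy chain reads. H2-Q7 gave 6.70% and 7.48% in responder libraries, against 5.90% and 5.76% in non-responder libraries, with no overlap between groups. The shares of H2-Q6, H2-T22, H2-T23 and H2-M3 did not overlap either and were lower in both responder libraries. Those of H2-K1, H2-D1 and H2-Q4 overlapped. For H2-T23 the nearest shares were 0.596% (0.542 to 0.656) in responder replicate 2 and 0.599% (0.531 to 0.676) in non-responder replicate 1. The Wilson intervals of the nearest libraries also overlapped for H2-T22 and H2-M3. All these shares are parts of the same sum, so they are not independent, and no share over all genes stands beside them. Taken relative to H2-K1 in the same library, 6 of the other 9 genes did not overlap between groups, where 15.8% of all tested genes did not. For H2-K1 itself the responder libraries lay between the non-responder libraries, and dividing by it lowered the all-gene share from 36.5%, so the 15.8% is no level to read the 6 of 9 against. H2-Q7 and Nlrc5 were higher relative to H2-K1 in both responder libraries, by a mean log2 difference of 0.27 and 0.70. H2-Q6, H2-T22, H2-T23 and H2-M3 were lower relative to H2-K1 in both responder libraries, by mean log2 differences of -0.13, -0.08, -0.38 and -0.21. The nearest log2 ratios of H2-T23 were -6.18 in responder replicate 2 and -6.16 in non-responder replicate 1. For the heavy chains these ratios largely repeat the shares above, since the share of H2-K1 was steady. With 2 libraries a group, an exact permutation test of any such ratio cannot go below p = 0.333.

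Shared sequence limits how well some of these genes can be counted. Of all 50-base windows of their GENCODE M21 transcripts, 100% were found in no other gene for B2m, 99.7% for Nlrc5 and 99.4% for H2-M3. The share was 90.4% for H2-K1, 87.2% for H2-D1, 85.5% for H2-T23, 73.55% for H2-Q7, 65.0% for H2-Q6, 63.6% for H2-Q4 and 46.5% for H2-T22. H2-T22 shared 31.2% of its windows with H2-T10 and 26.5% with A930015D03Rik, which overlaps it on the opposite strand. H2-Q4 shared 15.3% of its windows with Gm11131, which also overlaps it on the opposite strand. Windows that match the opposite strand count as shared here. Reads from such overlaps have 1 place in the genome and counting was stranded, so the values of H2-T22 and H2-Q4 can overstate the loss. H2-Q6 shared 13.9% of its windows with H2-Q7, and H2-Q7 shared 14.0% of its windows with H2-Q10 and 8.74% with H2-Q5. Multi-mapping reads were not requested in counting, so the Q genes and H2-T22 may be undercounted and their order is uncertain. The class I genes H2-Q8, H2-Q9 and H2-T9 were also sought but not found by name. Whether reads of such relatives were counted on the genes named here was not tested. The read length is not given in the sources used here.

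Genes that make peptides and load them onto class I were examined next. Of 13 tested, 0 passed edgeR's test, 9 had a log2 fold change above 0 and 4 below, at a median of 0.12. Non-responder replicate 1 was lower than replicate 2 by over 1.5-fold for 7 of the 13. These were the peptide transporter genes Tap1 and Tap2, the loading factor gene Tapbp, the immunoproteasome genes Psmb8, Psmb9 and Psmb10 and the proteasome activator gene Psme2. Tap1 had 303 and 318 CPM in responder libraries, against 109 and 329.6 CPM in non-responder libraries. Calr, a general chaperone gene of the endoplasmic reticulum, had another order, with 1683 and 1757 CPM in responder libraries, against 1997 and 1854 CPM in non-responder libraries.

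Of 20 genes of the interferon gamma axis, 0 passed, 15 had a log2 fold change above 0 and 5 below, at a median of 0.55, and non-responder replicate 1 was lower than replicate 2 by over 1.5-fold for 16 of the 20. The large GTPase gene Gbp2 had 1468 and 1432 CPM in responder libraries, against 488 and 1177 CPM in non-responder libraries. The exceptions were the receptor and kinase genes Ifngr1, Ifngr2, Jak1 and Jak2. Jak1 had 348 and 279.9 CPM in responder libraries, against 389.9 and 323 CPM in non-responder libraries.

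Of 15 class I regulators, 0 passed, 11 had a log2 fold change above 0 and 4 below, at a median of 0.11, and non-responder replicate 1 was lower than replicate 2 by over 1.5-fold for 3, Irf1 and Ciita among them, a share near the 16.7% of all tested genes. It was higher by over 1.5-fold for 1, Ezh2, which encodes a repressive histone methyltransferase and had 93.4 and 102 CPM in responder libraries, against 113 and 74.1 CPM in non-responder libraries. Irf1, which stands in both lists, encodes an interferon-induced transcription factor. Irf1 had 406 and 455 CPM in responder libraries, against 287 and 461 CPM in non-responder libraries. The genes of the X and Y box complex, Rfx5, Rfxap, Rfxank, Nfya, Nfyb and Nfyc, were not among these 3. Rfx5 had 21.4 and 20.97 CPM in responder libraries, against 31.5 and 28.8 CPM in non-responder libraries (log2 fold change -0.51, SE 0.18, edgeR adjusted p = 0.744), and Nfya had 61.0 and 72.6 CPM in responder libraries, against 64.9 and 58.8 CPM in non-responder libraries. Ciita, the class II transactivator gene, was at no more than 2.69 CPM.

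**Figure D4:**
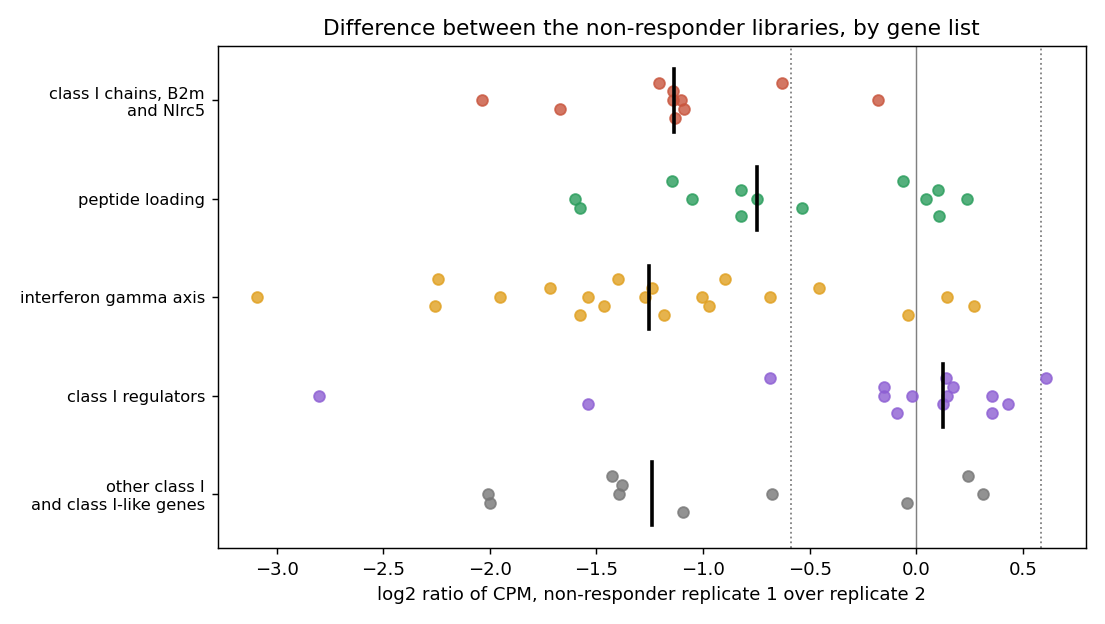
Log2 ratio of CPM, non-responder replicate 1 over replicate 2, for the 10 genes and 4 related lists, 1 point per tested gene, with list medians as black bars and the 1.5-fold marks as dotted lines. Points lie left of the lower mark for 9 of the 10 class I genes, 7 of 13 peptide loading genes, 16 of 20 interferon gamma axis genes, 3 of 15 class I regulators and 7 of 10 other class I and class I-like genes.

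Of 17 other class I and class I-like genes found, 10 were tested and 0 passed, with 4 log2 fold changes above 0 and 6 below, at a median of -0.36. Non-responder replicate 1 was lower than replicate 2 by over 1.5-fold for 7 of the 10. H2-Q5 had 28.7 and 31.7 CPM in responder libraries, against 14.7 and 31.3 CPM in non-responder libraries. Mr1, which presents vitamin B metabolites, was not among those 7, with 29.4 and 25.2 CPM in responder libraries, against 46.0 and 38.8 CPM in non-responder libraries (log2 fold change -0.64, SE 0.18, edgeR adjusted p = 0.631). The genes whose pattern over the 4 libraries was nearest to that of H2-K1 were sought among 7367 genes with a mean of at least 20 CPM, by the root-mean-square difference of centred log2 CPM. The nearest were Rps3a1 (0.04), Ube2l6 (0.05), Pcolce (0.06), Gbp5 (0.07), Snx8 (0.07) and Uap1l1 (0.09), with Ackr3, Parp11, Tmc6 and Lamb2 next, against a median of 0.47 over these genes. Among the class I genes H2-D1 was at 0.03, H2-T22 at 0.04, H2-Q6 at 0.07, H2-M3 and H2-Q7 at 0.15, H2-Q4 at 0.22, H2-T23 at 0.27 and B2m at 0.35. Nlrc5 was at 0.48, above the median of all these genes. This measure grows with the size of a change as well as with a different order of libraries. Nlrc5, like H2-K1, was lowest in non-responder replicate 1. Its gap between non-responder libraries was wider, at 4.10-fold against 2.21-fold for H2-K1. Rps3a1 can share reads with pseudogenes, so its level is uncertain.

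Leukocytes express class I as well. Pan-leukocyte, macrophage and antigen-presenting cell marker sums were lowest in responder replicate 1. The class I genes were lowest in non-responder replicate 1. H2-K1 had 1639.7 CPM in responder replicate 1, where pan-leukocyte markers summed to 13.3 CPM, and 1599 CPM in responder replicate 2, where they summed to 44.4 CPM. Non-responder replicate 1, with 895 CPM of H2-K1, had a pan-leukocyte sum of 42.7 CPM, close to that of responder replicate 2. The macrophage sums of these libraries were also close, at 79.0 CPM and 76.0 CPM. The antigen-presenting sum was lower in non-responder replicate 1, at 18.8 CPM against 114 CPM in responder replicate 2. So was the T and NK sum, at 0.29 CPM against 0.944 CPM. Non-responder replicate 2 had the highest sum of every marker list and the highest level of 7 of the 10 class I genes. The lists were pan-leukocyte, macrophage, antigen-presenting, T and NK, fibroblast, endothelial and epithelial. All 9 pan-leukocyte and all 9 fibroblast markers had a log2 fold change below 0, and 0 of them passed edgeR's test. At an unadjusted p under 0.05 there were 7 of the 9 fibroblast markers and 0 of the 9 pan-leukocyte markers, against the 6.21% of all tested genes. Col1a1, which encodes a fibrillar collagen chain, had 112 and 92.9 CPM in responder libraries, against 240.3 and 278 CPM in non-responder libraries (log2 fold change -1.34, SE 0.20, edgeR adjusted p = 0.221). The part of leukocytes and other non-tumor cells in the class I levels of each library was not tested.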

How the data were processed

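Polyadenylated RNA of sorted MC38 tumor cells was sequenced in 2 responder and 2 non-responder libraries, grouped by the sample titles. Alignment was with STAR to mm10 (GRCm38), per the submitters' processing notes, and its version is not given in the sources used here. The deposited values are raw counts per gene from featureCounts 1.6.1 on Ensembl release 91, reverse-stranded (setting 2), 1 file per library, with multi-mapping reads not requested, per the file headers. A symbol was found for 53274 of 53379 identifiers, and where identifiers shared a symbol the one with most reads was used.

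Counts were fitted with edgeR 4.0.16 (R 4.3.3): filterByExpr with a minimum count of 10 left 13792 genes, TMM factors were 0.952 to 1.04, and a robust quasi-likelihood test had the group as its only term. P-values were adjusted over all genes by Benjamini-Hochberg at 0.05, and the SE is the size of the log2 fold change over the square root of F. Levels per length divide CPM by the deposited exon length. Alternatives were DESeq2 1.42.0, limma-voom (limma 3.58.1), other scalings and filters, a replicate block, and each library left out. The rule for named genes took all 10 genes, the 10 of nearest pattern to H2-K1, and members of fixed lists. Members, lists and tests were chosen with earlier results of these data known. Promoters are RefSeq sequences on GRCm38.p6. Results that involve 1 regulator are not reported here.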

Additional observations from a re-analysis of the deposited data

How the results depend on the processing

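The absence of a call among the 10 genes was kept under RLE factors, upper-quartile factors, library size only, DESeq2, limma-voom, no low-count filter, the filter of 5 CPM in 2 libraries and the replicate block, and left-out libraries gave 0 to 4 calls among them. Over all genes the count of 0 became 62 with DESeq2, 212 with no low-count filter and 32 with the replicate block, and 41 to 516 with a library left out. The counts of low and high libraries among the 10 genes were the same under TMM, RLE, upper-quartile and library-size scaling, except that the groups of B2m overlapped with library size only. The replicate numbers are not known to pair the libraries, although replicates 1 of both groups deviated together (correlation across genes 0.39). Left-out libraries moved the median log2 fold change of the 10 genes, 0.13, to between -0.28 and 0.76, that of the summed heavy chains, 0.17, to between -0.28 and 0.84, and the difference in the log2 ratio of heavy chains to B2m, 0.11, to between -0.36 and 0.58. The ranges by gene with a library left out were -0.28 to 0.85 for H2-K1, -0.28 to 0.92 for H2-D1, -0.28 to 0.34 for H2-Q4, -0.41 to 0.72 for H2-Q6, 0.02 to 1.10 for H2-Q7, -0.36 to 0.78 for H2-T22, -0.92 to 0.74 for H2-T23, -0.47 to 0.63 for H2-M3, 0.08 to 0.25 for B2m and -0.023 to 2.004 for Nlrc5. With all libraries, the sign turned for H2-Q4 (to 0.012 with library size only, 0.031 with limma-voom and 0.028 with the replicate block) and for H2-M3 (to 0.066 with limma-voom and 0.066 with the replicate block). The main values of both genes are near 0. Values moved by over 1.5 times with no change of sign or call for H2-K1 (0.29 with limma-voom, 0.28 with the replicate block), H2-D1 (0.32, 0.32), H2-Q6 (0.16, 0.15), H2-T22 (0.21, 0.21), H2-T23 (-0.11, -0.11) and, with limma-voom, Nlrc5 (0.99). The cause was not tested. Reads were ample for all 10 genes, the fewest being 259 for H2-T23. The precision of the comparison is limited by 2 libraries a group, and shared sequence can lower the counts.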
